A study of Mus musculus with 6 samples.

Results

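The genes of the TGF-beta pathway core were followed in splenic NK cells: the ligand gene Tgfb1, the receptor genes Tgfbr1, Tgfbr2 and Tgfbr3, the signalling genes Smad2, Smad3 and Smad4, the inhibitory Smad7, and the corepressor genes Ski and Skil. These 10 genes were taken by name from the 24333 genes of the expression tables, and each of the 10 was found in a single row. The RNA came from spleen cells of female C57BL/6 mice, sorted as NK1.1+ NKp46+ cells that lacked CD3 and did not bind the CD1d tetramer. Such a sort is meant to remove T cells and NKT cells. The mice of one group had been treated with complexes of IL-15 (called IL-15C, 3 libraries), those of the other with complexes of IL-2 (called IL-2C, 3 libraries). Every mouse thus received a cytokine complex; neither the carrier, the dose, the time nor the age is in the labels, and an untreated group was not analysed here. Nothing in the labels says whether a library was 1 mouse or a pool, so each test speaks only for the variation among these libraries, which may be technical.

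TGF-beta 1 is secreted in a latent form, wrapped in its own propeptide, and has to be freed before it can bind. It binds the receptor kinase TGFBR2, which recruits and activates TGFBR1; TGFBR1 then phosphorylates SMAD2 and SMAD3, which join SMAD4 and regulate genes in the nucleus. SMAD7 blocks the activated receptor, and SKI and SKIL hold SMAD complexes in a repressed state. In NK cells TGF-beta is known as a brake on interferon gamma production, on cytotoxicity and on the metabolic response to IL-15. IL-2 and IL-15 share the beta and gamma receptor chains, so the comparison asks how far the transcripts of this brake differ between cells driven by one cytokine or the other.

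All values are FPKM (fragments per kilobase of transcript, scaled to the mapped fragments of the library), a measure per length, so that levels of different genes can be set side by side. Read as Poisson counts, the deposited intervals implied 23543141 to 27229145 fragments per library. Such counts came out near whole numbers for only 29.4% to 31.3% of the rows checked in each library. The sums are therefore not a measured depth. The defining NK markers were abundant in every library, with Ncr1 (NKp46) at 755 to 832 FPKM and Klrb1c (NK1.1) at 507 to 557 FPKM. Cd3e was at 3.40 to 5.70 FPKM, and Csf1r, Pf4, Alas2 and Col1a1, which mark macrophages, platelets, erythroid cells and fibroblasts, each stayed under 1 FPKM, while the platelet gene Itga2b was at 1.07 to 1.37 FPKM. Summed over their lists, T cell markers came to 70.3 to 89.9 FPKM and granulocyte markers to 41.4 to 112 FPKM. Macrophage and monocyte markers came to 18.4 to 32.5 FPKM and erythroid markers to 1.34 to 22.3 FPKM. These 4 sums were each highest in IL-15C replicate 1. Of all marker genes tested, limma called the platelet gene Gp1bb lower in IL-15C (4.88 to 5.32 against 6.11 to 6.85 FPKM), and the granulocyte gene Retnlg (1.498 to 2.61 against 0.923 to 1.40) and the endothelial gene Pecam1, which leukocytes also express (25.0 to 27.6 against 20.8 to 21.2), higher. The granulocyte gene S100a8 was at 12.97 to 42.6 FPKM, highest in IL-15C replicate 1.

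Promoters are shown for the ligand gene and for Ski, the gene with the second smallest p-value of the 10, to give the sequence next to the start site. RefSeq windows (GRCm38.p6) were used for Tgfb1, Tgfbr1, Tgfbr2, Smad3 and Ski, 5 of the 10 genes. Each run below is the 250 bases before the start site, 5′ to 3′ on the strand of the gene, with AGAC or GTCT, the 4-base SMAD-binding motif read on either strand, in capitals.
Tgfb1, plus strand, chr7:25686752-25687001: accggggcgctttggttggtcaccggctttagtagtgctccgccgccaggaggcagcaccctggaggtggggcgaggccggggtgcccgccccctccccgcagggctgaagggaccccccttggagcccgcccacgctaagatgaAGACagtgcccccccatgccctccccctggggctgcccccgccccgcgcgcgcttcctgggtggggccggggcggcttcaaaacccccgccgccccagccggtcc
Ski, minus strand, chr4:155222536-155222785: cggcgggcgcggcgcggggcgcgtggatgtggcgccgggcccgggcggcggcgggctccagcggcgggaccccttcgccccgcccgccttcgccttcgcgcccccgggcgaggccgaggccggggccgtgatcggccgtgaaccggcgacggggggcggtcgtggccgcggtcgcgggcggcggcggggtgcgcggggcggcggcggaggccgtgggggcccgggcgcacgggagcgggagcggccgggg
The Tgfb1 window holds 1 such match and the Ski window holds 0, where 82.9% of 32851 promoter windows of this length hold at least 1. The Ski window is 87.6% G and C, above 99.96% of the windows, and the Tgfb1 window is 75.2%, against a median of 52.4%. The 8-base palindrome GTCTAGAC, in 0.167% of windows, and the STAT5 motif TTCNNNGAA, in 7.02%, have no match in either window. A match describes letters in this window and says nothing of binding.

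The 10 genes spanned a 65.3-fold range of level, and their order was the same in 6 of 6 libraries. Smad3 was the highest, at a mean of 70.5 FPKM over the 6 libraries, followed by Tgfb1 at 44.5, Tgfbr2 at 35.0 and Smad4 at 33.0. Ski had a mean level of 22.7 FPKM, Skil 17.2, Tgfbr1 11.95, Smad7 9.35 and Smad2 8.65. Tgfbr3 came last at 1.08 FPKM, with 99.3% of the 9831 tested genes above it. The ranges over libraries overlapped for 2 pairs of neighbours in this order, Tgfbr2 with Smad4 and Smad7 with Smad2; the other 7 pairs lay apart. By the group values of the authors' deposited table, which was scaled separately, the 10 genes held the same ranks in both groups.

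**Figure D1:**
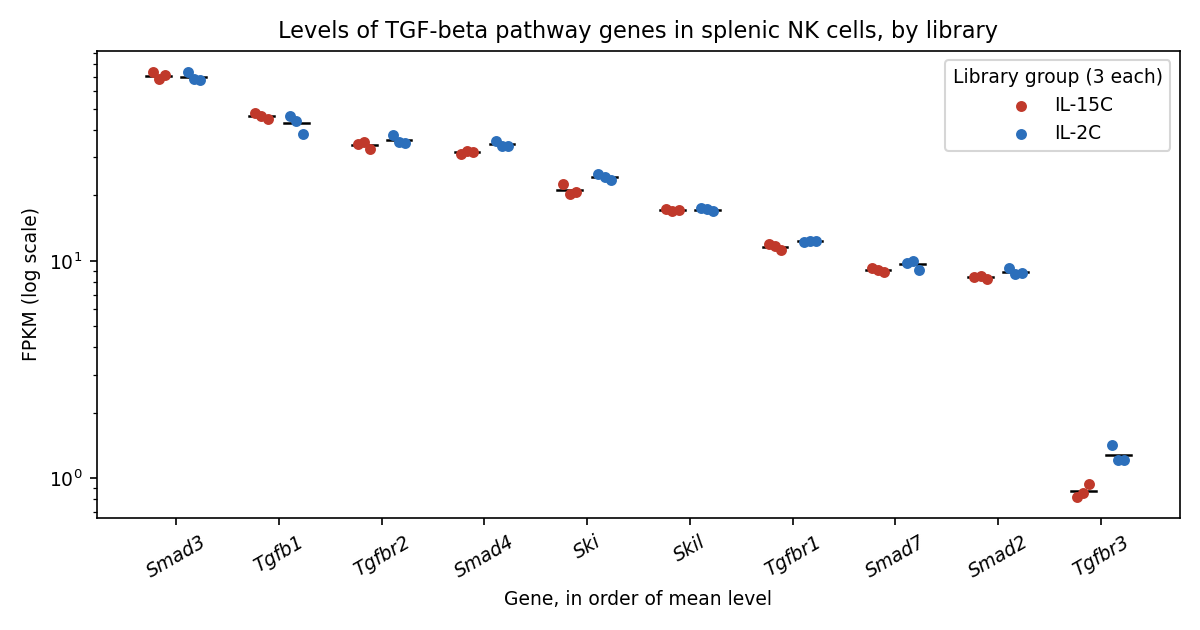
FPKM on a log axis for each of the 10 genes, with 1 point per library (IL-15C in red, IL-2C in blue, 3 each) and a bar at each group mean. From Smad3 at 70.5 FPKM down to Tgfbr3 at 1.08 FPKM the order is the same in 6 of 6 libraries, and the ranges of neighbours overlap only for Tgfbr2 with Smad4 and Smad7 with Smad2.

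Of the 10 genes, 0 passed the test between IL-15C and IL-2C. Differences are on the log2(FPKM + 1) scale as IL-15C minus IL-2C with their standard error (SE), tested with limma over all 9831 genes with a mean of at least 1 FPKM at a Benjamini-Hochberg adjusted p under 0.05; 6.44% of tested genes were called. Over all tested genes 169 were higher and 464 lower in IL-15C, a split that the scaling moved to 325 and 207 under a common median, 307 and 269 under quantile normalization and 204 and 326 as TPM. At an unadjusted p under 0.05 limma gave 3 of the 10, Tgfbr3, Ski and Smad4, each lower in IL-15C, where 20.4% of tested genes were lower by that rule. The 3 IL-15C values lay below the 3 IL-2C values for 5 of the 10, namely Tgfbr1, Tgfbr3, Smad2, Smad4 and Ski, where 25.1% of tested genes did so, and above them for 0 of the 10, where 8.15% did. Tgfbr3, which is in both counts, had a mean under 1 FPKM in IL-15C and entered the test through its IL-2C libraries, so it adds no support to either. The median change of the 10 was -0.08, and that of all tested genes -0.04 with 64.7% below 0. Other tools and libraries moved the count: limma without the intensity trend called 1 (Tgfbr3), array weights, which called 21.4% of all genes, 2 (Tgfbr3 and Ski), and the fit without IL-15C replicate 1 called 1 (Ski).

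**Figure D2:**
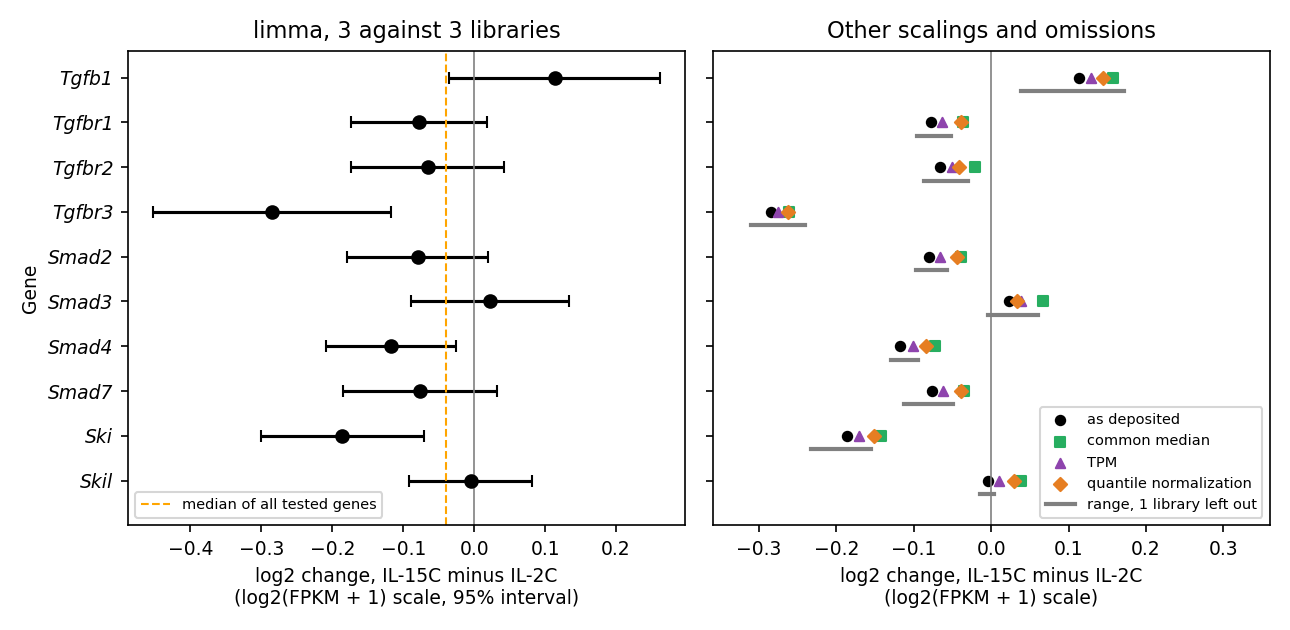
Left, the limma log2 change of each gene with its 95% interval, with a dashed line at the median of all tested genes (-0.04); right, the change under 3 other scalings and, as a grey bar, its range when 1 library is left out. The intervals of Tgfbr3, Ski and Smad4 lie below 0, and the other 7 include it.

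Tgfb1, the ligand, lies on chromosome 7 at 25687002 to 25704996 (mm10, as for the positions that follow). The IL-15C libraries, in the order of replicates 1, 2 and 3 used throughout, had 47.8, 46.2 and 44.8 FPKM, and the IL-2C libraries had 46.4, 43.7 and 38.4. The groups overlapped, and IL-2C replicate 3 was the lowest library. Means were 46.3 FPKM ± 1.53 (SD, n = 3) and 42.8 ± 4.08, a log2 change of 0.11 ± 0.07 (SE) with a 95% interval of -0.03 to 0.26 and a limma adjusted p of 0.299. Without IL-2C replicate 3 the change was 0.04 (adjusted p = 0.644), and without IL-2C replicate 1 it was 0.17 (adjusted p = 0.183). Platelets carry much of the TGF-beta 1 of blood. Over 10 platelet marker genes the summed level ran from 8.97 to 9.26 FPKM under IL-15C and from 10.7 to 11.9 under IL-2C. Of the 10 genes, 0 were at 0 in every library. More of that sum came from Gp1bb, at 4.88 to 5.32 and 6.11 to 6.85 FPKM, than from any other of them. Pf4 overlapped between groups, at 0.260 to 0.495 and 0.333 to 0.863 FPKM. Itga2b did not overlap, at 1.07 to 1.25 and 1.27 to 1.37 FPKM. The part of platelets in the Tgfb1 level was not tested.

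Among the receptors, Tgfbr2, which binds the ligand, was 2.93 times as abundant per length as its signalling partner Tgfbr1. Tgfbr2 (chromosome 9, 116087695 to 116175363) was at 34.5, 35.2 and 32.8 FPKM in the IL-15C libraries against 37.7, 35.0 and 34.7, with overlapping groups, a change of -0.07 ± 0.05 and an adjusted p of 0.403 in limma. Tgfbr1 (chromosome 4, 47353305 to 47414924) was at 11.9, 11.7 and 11.2 FPKM against 12.2, 12.3 and 12.3. All 3 IL-15C values of Tgfbr1 were lower, by a mean of 11.6 against 12.3 FPKM. Its change of -0.08 ± 0.04 did not pass (limma adjusted p = 0.270), and its 95% interval ran from -0.17 to 0.02. Scaled to a common median, the Tgfbr1 change was -0.04 (limma adjusted p = 0.595). Within each library the ratio of Tgfbr1 to Tgfbr2 was 0.345, 0.334 and 0.341 under IL-15C against 0.325, 0.352 and 0.355 under IL-2C, a ratio that does not move with the scaling of the library. The ratios overlapped between groups, with a difference in log2 ratio of -0.02 (exact two-sided permutation p = 0.7, and 0.7 when adjusted over the 4 ratios tested).

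Tgfbr3, or betaglycan, is a coreceptor without kinase activity that presents TGF-beta to TGFBR2; it had the lowest level of the 10. It lies on chromosome 5 at 107106570 to 107289595. The IL-15C libraries had 0.825, 0.857 and 0.940 FPKM, resting on 199, 218 and 243 implied fragments. The IL-2C libraries had 1.43, 1.22 and 1.21 FPKM, resting on 342, 353 and 356. Each IL-15C library was below each IL-2C library, and IL-2C replicate 1 was the highest. The means were 0.874 FPKM ± 0.0593 and 1.28 ± 0.123 (SD, n = 3), so that IL-2C was 1.47-fold higher. The log2 change was -0.29 ± 0.07 with a 95% interval of -0.45 to -0.12, and the limma adjusted p of 0.0532 missed the threshold. Tgfbr3 reached the filter of 1 FPKM on the strength of its IL-2C libraries, so it could enter the test only with one group high. A pseudocount of 0.1 in place of 1, which shrinks low genes less, gave -0.51 (adjusted p = 0.0547), and one of 5 gave -0.10, smaller in size than the -0.16 of Ski under that pseudocount. Limma without the trend gave an adjusted p of 0.0299 and array weights 0.0231; leaving out a library gave 0.0801 to 0.158. In the authors' deposited table the group intervals of Tgfbr3, 0.903 to 1.47 and 1.32 to 2.05 FPKM, overlapped, as they did for the other 9 genes; they lay apart for 80 of the 9831 tested genes. Summed B cell markers, with 0 of 12 genes at 0 in every library, ranged from 7.93 to 43.2 FPKM over the IL-15C libraries and from 15.6 to 67.6 over the IL-2C libraries, and the summed markers of stroma and endothelium, with 0 of 10 at 0 in every library, from 25.2 to 27.9 and from 21.0 to 21.5. Pecam1, which leukocytes also express, made up most of the stroma and endothelium sum, at 25.0 to 27.6 and 20.8 to 21.2 FPKM. The part of B cells, of stroma and endothelium, and of the platelet genes given above, in the Tgfbr3 difference was not tested. In a sorted population fewer cells of a type and less RNA per cell cannot be told apart.

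Of the genes for the receptor-regulated SMADs, Smad3 had the highest level of the 10 and Smad2 the second lowest. Smad3 (chromosome 9, 63646767 to 63757994) was at 73.7, 68.3 and 71.2 FPKM under IL-15C against 73.8, 68.5 and 67.6 under IL-2C. Its groups overlapped almost fully, and the change of 0.02 ± 0.05 had a 95% interval of -0.09 to 0.13 (limma adjusted p = 0.802). Smad2, on chromosome 18, was at 8.41, 8.49 and 8.25 FPKM against 9.24, 8.68 and 8.84. The IL-15C values of Smad2 were all lower, with a change of -0.08 ± 0.04 and a limma adjusted p of 0.277. Scaled to a common median, the Smad2 change was -0.04 (limma adjusted p = 0.586). The ratio of Smad3 to Smad2 was 8.76, 8.05 and 8.63 under IL-15C against 7.98, 7.89 and 7.66 under IL-2C. Every IL-15C ratio was above every IL-2C ratio, by 0.11 in log2 ratio, and the exact permutation p of 0.1 is the smallest that 3 against 3 libraries allow (0.2 when adjusted over the 4 ratios).

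Smad4, whose product is the common partner of the receptor-regulated SMADs, is also on chromosome 18. The libraries had 30.9, 32.1 and 31.7 FPKM under IL-15C against 35.4, 33.8 and 33.8 under IL-2C, so the groups were apart by 1.62 FPKM at their closest. The means were 31.6 FPKM ± 0.655 and 34.3 ± 0.939, a log2 change of -0.12 ± 0.04 with a 95% interval of -0.21 to -0.03 and a limma adjusted p of 0.108. Scaling the libraries to a common median gave -0.07 (adjusted p = 0.271). Smad7, the feedback inhibitor and a classical SMAD target gene, lies on the same chromosome. It was at 9.23, 9.09 and 8.88 FPKM under IL-15C against 9.76, 10.03 and 9.09 under IL-2C, with overlapping groups, a change of -0.08 ± 0.05 and a limma adjusted p of 0.337. The ratio of Smad7 to Smad4 averaged 0.287 ± 0.0104 and 0.2804 ± 0.0148 (SD, n = 3) with overlapping groups and a difference in log2 ratio of 0.04 (exact permutation p = 0.5, and 0.667 when adjusted over the 4 ratios).

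Of the 2 corepressor genes neither was called, and the groups lay apart for Ski and overlapped for Skil. Ski (chromosome 4, 155154075 to 155222535) was at 22.6, 20.2 and 20.6 FPKM under IL-15C against 24.9, 24.2 and 23.4 under IL-2C. The groups did not overlap, and IL-15C replicate 1 was the library nearest to IL-2C. Its means were 21.2 FPKM ± 1.28 and 24.2 ± 0.748 (SD, n = 3), a log2 change of -0.19 ± 0.05 with a 95% interval of -0.30 to -0.07 and a limma adjusted p of 0.0599. Without IL-15C replicate 1 the change was -0.23 and the adjusted p 0.0213, while the other 5 omissions gave 0.0788 to 0.179. That library also had the highest S100a8, and the part of granulocytes in the Ski difference was not tested. Across the 3 other scalings the change of Ski was -0.17 to -0.14 with an adjusted p of 0.0544 to 0.0751. Skil (chromosome 3, 31095058 to 31122923) was at 17.3, 16.9 and 17.1 FPKM under IL-15C against 17.4, 17.2 and 17.0 under IL-2C. Its libraries were nearly level, and the change of -0.005 ± 0.04 had a 95% interval of -0.09 to 0.08 (limma adjusted p = 0.952), turning to 0.04 under the common median. Within libraries the ratio of Skil to Ski was 0.766, 0.837 and 0.831 under IL-15C against 0.698, 0.712 and 0.723 under IL-2C. The ratio was higher in each IL-15C library, by 0.19 in log2 ratio, with an exact permutation p of 0.1, the smallest possible, and 0.2 when adjusted over the 4 ratios.

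**Figure D3:**
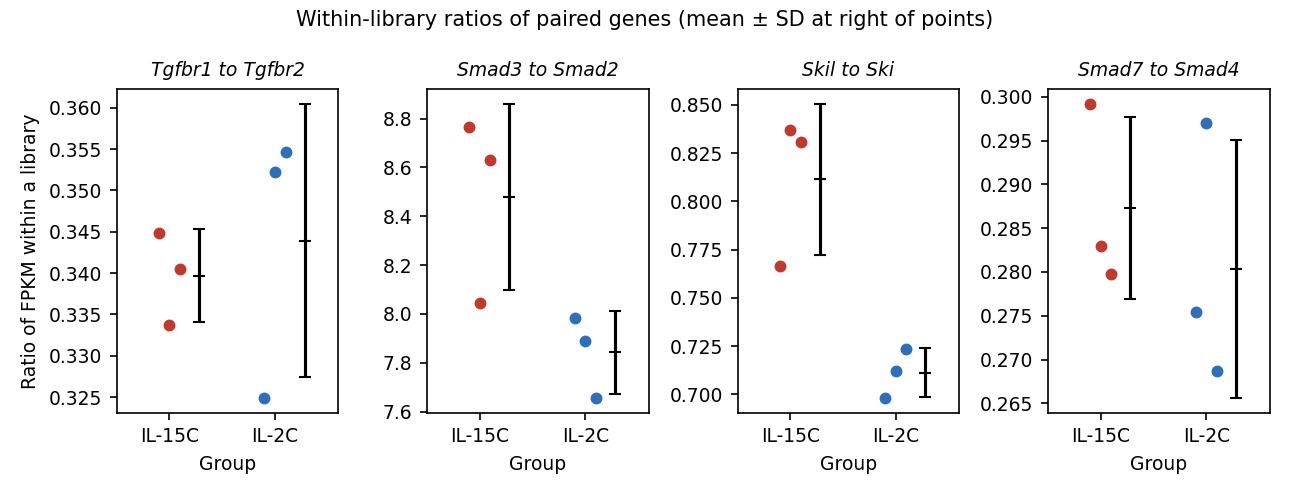
Ratios of FPKM within each library for 4 pairs of genes, with 1 point per library and the group mean ± SD at its right; each axis covers its own narrow range and does not start at 0. The ratios of Smad3 to Smad2 and of Skil to Ski were higher in each IL-15C library, and those of the other 2 pairs overlapped.

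Most relatives of the core genes were near 0 in these cells. Of 12 other ligand genes 2 passed the filter on low values, and 4 were listed at 0 in every library. Tgfb3 had a mean of 2.84 FPKM under IL-15C against 2.88, and Tgfb2 stayed at or below 0.0217. Gdf11, a ligand of activin receptors, averaged 7.37 FPKM ± 1.28 and 5.73 ± 0.413 with a change of 0.31 ± 0.10 (limma adjusted p = 0.0862). Without IL-15C replicate 1, which stood at 8.85 FPKM against 6.63 and 6.64 in the other two, the Gdf11 change was 0.18. Of 13 other receptor genes 3 passed the filter and 0 were called: the activin receptor genes Acvr1b and Acvr2a averaged 2.68 and 3.06 FPKM under IL-15C against 2.70 and 3.09, and the BMP receptor gene Bmpr2 1.42 against 1.64, with a change of -0.12 (adjusted p = 0.260). The BMP-responsive Smad5 averaged 14.7 and 13.9 FPKM and Smad1 4.04 and 4.25, neither called, with changes of 0.08 and -0.06. Smad6, the other inhibitory SMAD, was at or below 0.00854 FPKM, and Smad9 at or below 0.00452.

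Genes that hold and free latent TGF-beta gave 0 called genes of 7 tested, from a list of 20. That count depended on the scaling. It was 1 under a common median, 1 as TPM and 1 after quantile normalization, where 5.41%, 5.39% and 5.86% of all tested genes were called. With array weights, which called 21.4% of all tested genes, it was 3. Nrros, which anchors latent TGF-beta on leukocytes, had means of 24.3 FPKM ± 0.846 under IL-15C and 21.7 ± 1.42 under IL-2C, with a change of 0.15 ± 0.05 (limma adjusted p = 0.106). Lrrc32, which encodes the anchor GARP of regulatory T cells, was at or below 0.00505 FPKM. Of the integrins, Itgav had a change of -0.11 ± 0.05 and Itgb3 0.35 ± 0.11 (limma adjusted p = 0.202 and 0.0935), while Itgb6 and Itgb8, whose products pair with the alpha V chain to activate TGF-beta, were listed at 0 in every library. Without IL-15C replicate 1, the highest library for Itgb3 at 3.90 FPKM, its change was 0.20. Ltbp4, a latent TGF-beta binding protein gene, had -0.13 ± 0.08, and -0.08 without IL-2C replicate 3; with means of 0.969 and 1.16 FPKM it too passed the filter only through its IL-2C libraries.

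Across 9 lists of other pathway genes, 98 were tested and 11 called, or 11.2% beside 6.44% of all tested genes, 3 higher and 8 lower in IL-15C. The last of these lists holds genes already known to differ in these libraries, so its count is not independent. That list gave 5 of the 11 calls from 22 tested genes, so the 11.2% is not a result about the pathway. Over all tested genes 169 were higher and 464 lower, so most calls were lower there too. For the list genes, rose and fell mean higher and lower in IL-15C than in IL-2C, not a change from an untreated level. Of 20 tested genes that anchor SMADs, turn them over or remove their phosphate, 0 rose and 3 fell, with a list median of -0.07. These were Ppm1a, a phosphatase of SMAD2 and SMAD3, which fell by 0.18 ± 0.04; Ldlrad4, an inhibitor of TGF-beta signalling and also listed as a target, which fell by 0.23 ± 0.06; and Stub1, a ubiquitin ligase, which fell by 0.22 ± 0.06 (limma adjusted p = 0.0425, 0.047 and 0.0485). The count of 3 in this list became 0 under a common median, 0 after quantile normalization and 2 as TPM. It ran from 0 to 2 over the omissions of single libraries. Uchl5, a deubiquitinase, had -0.20 ± 0.06 (adjusted p = 0.0729), and -0.26 without IL-15C replicate 1 (adjusted p = 0.0203). Of 16 nuclear partners 0 rose and 1 fell, with a median of -0.02: Zeb2, a SMAD-binding transcriptional repressor that NK cells need for terminal maturation, averaged 37.5 FPKM ± 2.04 against 46.6 ± 1.28 and fell by 0.31 ± 0.05. The histone acetylase gene Ep300 had 0.17, the kinase gene Hipk2 0.21 and the corepressor gene Ncor1 0.10, each short of the threshold. Of 16 genes of the SMAD-independent branches 0 rose and 1 fell, with a median of -0.05: Map2k6, which activates p38, fell by 0.22 ± 0.05, while Mapk8, Daxx and Tab1 had -0.14, -0.09 and -0.12.

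Of 11 tested general TGF-beta target genes 0 rose and 2 fell, with a median of -0.09. Tsc22d1, a leucine zipper gene induced by TGF-beta in many cells, had means of 3.20 FPKM ± 0.356 under IL-15C and 4.49 ± 0.127 under IL-2C and fell by 0.39 ± 0.07 (limma adjusted p = 0.0195); the other was Ldlrad4. The cell cycle inhibitor gene Cdkn1b had -0.23 ± 0.06 (adjusted p = 0.0545) and Id3, an inhibitor of E proteins, -0.47 ± 0.15 (adjusted p = 0.0846). Id3 was called without IL-15C replicate 1 (-0.64, limma adjusted p = 0.012) and was at -0.28 without IL-15C replicate 2 (adjusted p = 0.140). Cdkn1b was called with a mean filter of at least 5 FPKM (adjusted p = 0.0497) and with array weights (adjusted p = 0.0183). Among 22 tested genes linked to TGF-beta in NK cells and other lymphocytes 3 rose and 2 fell, with a median of 0.10. Thy1, Gzmb and Ifng were higher in IL-15C than in IL-2C, by 0.80, 0.64 and 0.36 on the log2 scale. S1pr5, an exit receptor, was lower in IL-15C by 0.32, and Rgs2, which limits signalling through G proteins, by 0.26. Itgae (CD103), which TGF-beta induces in tissue-resident lymphocytes, was below the filter, at 0.446 to 0.656 FPKM under IL-15C against 0.567 to 0.697. Of the 11 called genes, 6 stayed called under each of 3 other scalings (Thy1, Gzmb, Ifng, S1pr5, Zeb2 and Tsc22d1). Ppm1a, Stub1 and Map2k6 were called under 1 of the 3 scalings, and Ldlrad4 and Rgs2 under 0. Over the 6 omissions of single libraries, Ppm1a and Map2k6 were called in 0, Ldlrad4 and Stub1 in 1, and Rgs2 in 2. With single libraries left out, 8, 4 and 7 of the 11 were called without IL-15C replicate 1, 2 or 3, and 2, 1 and 6 without IL-2C replicate 1, 2 or 3; Thy1 passed each time.

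**Figure D4:**
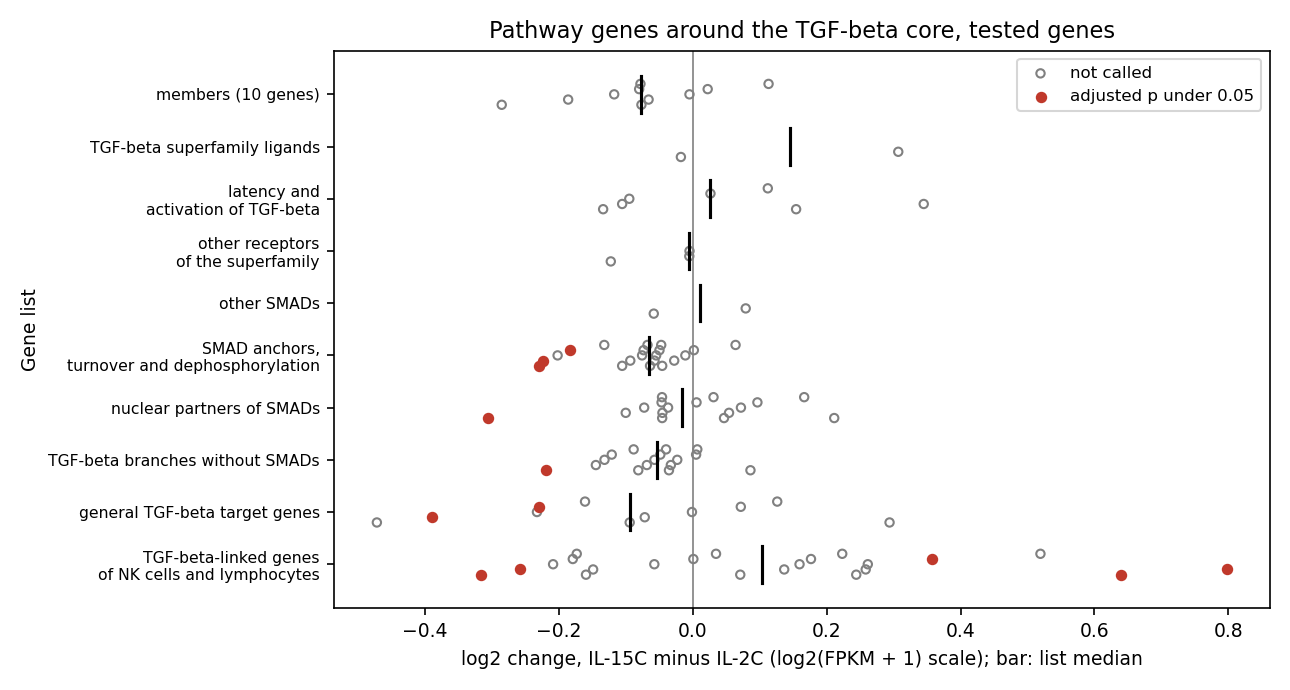
Limma log2 change of each tested gene (1 point per gene) for the 10 core genes, at the top, and for 9 lists of other pathway genes; filled red points passed an adjusted p of 0.05 and bars mark list medians. The 10 core genes have 0 red points, and the 3 called genes to the right of 0 are Thy1, Gzmb and Ifng.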

How the data were processed

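RNA sequencing of 6 libraries was analysed, grouped by sample title; strand and gene annotation are not given in the sources used here. TopHat2 2.0.13, Cufflinks 2.2.1 and mm10 are named in the submitters' processing notes. The authors deposited FPKM with interval bounds per library, per the file headers, and a separately scaled group table in FPKM. Values are per gene, so isoforms are merged. Rows of 280 repeated genes were summed, and 10 genes with a failed estimate were left out. Implied fragments read each upper bound as the estimate plus 2 SD of a Poisson count. That reading gave near-whole counts for a minority of the rows checked, so implied fragments are approximate. Log2(FPKM + 1) was tested with limma 3.58.1 (R 4.3.3) with an intensity trend, two-sided, over 9831 genes with a mean of at least 1 FPKM, adjusted by Benjamini-Hochberg; no gene of the core was below that filter. On simulated data for these 9831 genes it recovered 61.7% of log2 changes of 0.25 and 98.0% of 0.5. The simulated noise was independent between genes and libraries, with no shared scaling effect. Its spread was taken from the same limma fit, and fewer genes were changed in it than were called here. The recovery is therefore not the power of this comparison. Of the core genes only Tgfbr3 had a change above 0.25 in size, and recovery of smaller changes was not simulated. Within-library ratios used exact permutation tests. Members and lists were chosen with earlier results of these data known. Other genes named are the 4 with the smallest p of each list, any other called gene and defining markers; 1 marker gene is not reported here and was left out of its list. Positions are 1-based; exons of 9 of the 10 genes overlap no other gene in GENCODE M21, and Tgfbr3 shares 297 bases with Gm43422 on its strand. Python 3.11.15, pandas 2.3.3, scipy 1.17.1 and matplotlib 3.10.9 were used.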

Additional observations from a re-analysis of the deposited data

How the results depend on the processing

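The count of core genes called, 0, became 1 under limma without trend (Tgfbr3) and 2 with array weights (Tgfbr3 and Ski), and ran from 0 to 1 over the omissions of single libraries. Of 159 refitted changes of the 10 genes, 147 kept direction and call, 5 passed the threshold and 7 turned sign; the cause was not tested. The turned signs were those of Skil (0.0383 under the common median, 0.0104 as TPM, 0.03 after quantile normalization, -0.0142 to 0.0037 over omissions) and Smad3 (-0.004 to 0.0606 over omissions), each with an adjusted p of at least 0.505 where it turned. The difference between groups in the log2 ratio of Tgfbr1 to Tgfbr2 ran from -0.0574 to 0.0059 over omissions. Among genes of the other lists, the sign also turned for Acvr1b (0.0282 under the common median, 0.0062 as TPM, 0.0313 after quantile normalization, -0.0409 to 0.0626 over omissions), Acvr2a (0.0294, 0.0072 and 0.0435 in the same order, 0.0793 with array weights, -0.0661 to 0.0662 over omissions) and Tgfb3 (0.0155 under the common median, 0.0245 after quantile normalization, 0.0131 with array weights, -0.0869 to 0.0644 over omissions). Called list genes, 3 higher and 8 lower, numbered 0 and 0 without a filter, 10 and 19 with array weights, and 3 lower under the common median; over omissions they ran from 1 to 4 higher and from 0 to 8 lower. Over all genes 633 were called, against 15 of 16313 without a filter, 2107 with array weights and 29 to 747 over omissions. A mean of at least 5 FPKM left Tgfbr3 out, and no core gene fell below the filter, so the exact test fixed for that case was not run.

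The labels do not say whether replicate numbers pair the libraries. Deviations of same-numbered libraries correlated at -0.029, -0.156 and -0.024, which cannot settle it. With the replicate block 1 core gene was called (Ski, adjusted p = 0.0488), and 5 list genes were lower instead of 8. Cdkn1b passed under the block (adjusted p = 0.0473), and Ldlrad4, Map2k6, Ppm1a and Stub1 lost the call (adjusted p of 0.0503 to 0.0681).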
